A study of Mus musculus with 9 samples.

Results

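The NMDA receptor subunit genes Grin1, Grin2a, Grin2b, Grin2c, Grin2d and Grin3a were followed through all 9 columns of a count table from mouse brain neurons. The 6 genes were taken by their symbols, without use of any measured value, from the 54838 genes of the table. Cells were taken from brain sections with a laser under the microscope (laser capture), and their RNA was read from its polyadenylated 3′ ends as Smart-3SEQ libraries. The study deals with the paraventricular hypothalamus (PVH) and its part in visceral and somatic pain, and its design text names cells marked by CRD, by VFF and by the 2 together. There were 3 groups of 3 columns. Overlap cells carried the cfos and the mCherry label, cfos cells are named for the protein of the activity gene Fos, and mCherry cells for a red fluorescent protein. All of them are given as neurons of the brain. Which of cfos and mCherry stands for CRD and which for VFF, and the strain, genotype, age and treatment of the animals, the way in which mCherry was brought into the cells and the number of cells or animals behind a library, could not be taken from the sources used here. The libraries are described as biological replicates with no animal named, so that a p-value here speaks of the spread from library to library, which may be technical.

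NMDA receptors are glutamate-gated channels that let calcium into the neuron when glutamate binds while the membrane is already depolarised, because magnesium blocks the pore at rest. Each receptor is a tetramer that needs GluN1, the product of Grin1, which binds the co-agonist glycine or D-serine, together with GluN2 subunits (Grin2a to Grin2d), which bind glutamate and set how fast the channel closes and how strongly magnesium blocks it, or with GluN3 subunits (Grin3a, Grin3b), which bind glycine and lower the calcium flow. In the PVH, glutamate acting on these receptors is known to drive neuroendocrine and autonomic neurons.

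The table holds 3′-end counts, so that its values change little with transcript length, and genes are compared here across libraries and not ranked against each other. Total counts were 504785 to 597898 in the overlap columns, 700556 to 3414593 in the cfos columns and 877257 to 978877 in the mCherry columns. The counts of cfos 2 and cfos 3 agreed within sampling noise, with a chi-square of 0.824 per gene where the remaining 35 pairs had 9.08 to 58.5, and cfos 2 had more counts than cfos 3 in 0 of the 54838 genes, so that they may not be separate libraries. They were averaged into 1 replicate, called cfos 2/3. This left 3 overlap, 2 cfos and 3 mCherry replicates. There were 0 genes in which mCherry 2 had more counts than mCherry 1 and mCherry 3 added up. It is therefore not taken as independent of them, and the p-values below are likely too small. Levels are in CPM, counts divided by the effective library size, which is the total in tested genes times its trimmed-mean-of-M-values (TMM) factor. Fos RNA, a limited check of the labels, stood at 72.4, 209 and 282 CPM in overlap 1, 2 and 3. It was 286 CPM in cfos 1 but 24.7 CPM in cfos 2/3, and mCherry 1, 2 and 3 had 30.9, 21.3 and 11.3 CPM. The library labelled cfos 1 and the replicate labelled cfos 2/3 thus stood apart in the gene that names their group. All 12 neuronal markers looked for, such as Snap25 and Map2, had counts in each group, and their summed level was 1036 to 1435 CPM in overlap, 2176 to 3540 CPM in cfos and 1757 to 1874 CPM in mCherry. Of 10 PVH markers all had counts in overlap and cfos and 9 in mCherry, where the melanocortin receptor gene Mc4r was at 0. A single count was enough for this, and Mc4r itself had 1 count in overlap 1 and 1 in cfos 2/3. In mCherry 1, 2 and 3, Avp had 2, 1 and 0 counts, Otp 0, 1 and 1, Sst 0, 2 and 3, Crh 7, 1 and 0 and Trh 10, 5 and 5. There Oxt had 104, 258 and 389 counts, Slc17a6 158, 67 and 84, Nr3c1 60, 67 and 78 and Sim1 16, 17 and 43. Low counts were not particular to mCherry, since Otp had 5, 4 and 1 and Sst 4, 0 and 0 counts in overlap 1, 2 and 3. The 10 markers summed to 375 to 1573 CPM in overlap, 795 to 837 CPM in cfos and 381 to 617 CPM in mCherry. Of the 1573 CPM in overlap 2, 1121 CPM were of Oxt.

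The genes lie on 6 chromosomes of the GRCm38 (mm10) build, all on the minus strand and all protein-coding in GENCODE M21. Grin1 (ENSMUSG00000026959) spans 25291181 to 25319187 on chromosome 2, and its 8 protein-coding transcripts share 1 annotated 3′ end, so that its splice forms cannot be told apart. Grin2a (ENSMUSG00000059003) spans 9567898 to 9995560 on chromosome 16, and Grin2b (ENSMUSG00000030209) spans 135713233 to 136173511 on chromosome 6. Grin2c (ENSMUSG00000020734) lies at 115249169 to 115267243 on chromosome 11, Grin2d (ENSMUSG00000002771) at 45831883 to 45878378 on chromosome 7 and Grin3a (ENSMUSG00000039579) at 49661611 to 49845744 on chromosome 4. Without a stated strand setting, reads of overlapping exons on the opposite strand could enter these counts. The antisense gene Grin1os shares 1307 exon bases with Grin1 and had 2 counts over all 9 columns, and Gm26653 shares 49 exon bases with Grin2b and had 201 counts, against 1617 for Grin1 and 1741 for Grin2b.

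Promoter sequences were at hand for Grin1, Grin2c and Grin2d, and are shown because Grin1 is the obligatory subunit and Grin2c and Grin2d are the members with the fewest counts, both of them highest in cfos cells. They are RefSeq sequences on GRCm38.p6, from 250 bases before the RefSeq gene start to 50 bases after it, on the minus strand, at chr2:25319138-25319437, chr11:115267194-115267493 and chr7:45866632-45866931. The RefSeq start of Grin2d differs from the GENCODE start, and its window lies inside the GENCODE span given above. Capitals mark GGGCGG, the GC box to which Sp1-type factors bind.
Grin1: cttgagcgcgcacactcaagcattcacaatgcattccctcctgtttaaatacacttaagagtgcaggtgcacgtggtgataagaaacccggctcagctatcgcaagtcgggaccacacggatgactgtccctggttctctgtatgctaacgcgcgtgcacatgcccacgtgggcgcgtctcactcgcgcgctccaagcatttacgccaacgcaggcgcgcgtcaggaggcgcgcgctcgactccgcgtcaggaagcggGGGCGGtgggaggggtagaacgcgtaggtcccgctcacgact
Grin2c: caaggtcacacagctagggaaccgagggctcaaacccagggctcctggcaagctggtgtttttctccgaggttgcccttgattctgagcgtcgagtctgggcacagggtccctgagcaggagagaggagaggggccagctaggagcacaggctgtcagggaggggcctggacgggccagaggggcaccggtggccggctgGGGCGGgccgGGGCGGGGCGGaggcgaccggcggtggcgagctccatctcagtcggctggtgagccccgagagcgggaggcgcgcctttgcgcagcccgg
Grin2d: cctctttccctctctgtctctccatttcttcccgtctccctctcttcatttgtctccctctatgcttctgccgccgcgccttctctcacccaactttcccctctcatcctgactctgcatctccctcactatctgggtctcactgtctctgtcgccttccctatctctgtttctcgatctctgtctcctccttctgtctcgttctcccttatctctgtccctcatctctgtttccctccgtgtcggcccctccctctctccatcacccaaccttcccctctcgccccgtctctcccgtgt
The GC box was found on the printed strand only. It began at base 9 after the start of Grin1 (the first gene base being 1) and at bases -50, -40 and -35 of Grin2c, where the last 2 copies share a base. It was not in the Grin2d window. It occurs on either strand in 35.6% of the 32817 promoters of this length in the table. TGANTCA, the AP-1 site to which dimers of Fos and Jun bind, was in none of the 3 windows and is in 7.81% of all. TGACGTCA, the cyclic AMP response element, was also in none of the 3 and is in 1.79% of all. The NRF-1 site and the RE1 element, to which the repressor REST binds, were in none of the 3 either, and 0.966% and 0.0213% of all promoters hold them. Both strands were searched for each. CpG dinucleotides numbered 33 in the Grin1 window, 22 in that of Grin2c and 12 in that of Grin2d. Grin2a, Grin2b and Grin3a are named only.

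Over the 3 groups, Grin2a, Grin2c and Grin2d were the members with the widest differences of mean level, while Grin1, Grin2b and Grin3a differed between group means by less than 2-fold. The test over all genes, edgeR's quasi-likelihood test with Benjamini-Hochberg adjustment, called 0 of the 5 members that passed the count filter in any of the 3 comparisons, and 0 of the 16410 genes tested, which is 0% in each. At an unadjusted p under 0.05 it had 0 of the 5 members in each comparison, beside 15% of all genes in overlap versus mCherry, 11.8% in overlap versus cfos and 17.7% in cfos versus mCherry. Grin2c did not pass the filter. The median log2 fold change of the 5 was -0.62 in overlap versus mCherry, -0.39 in overlap versus cfos and -0.31 in cfos versus mCherry, with 4, 4 and 3 of them below 0. The comparisons share libraries with each other, so the differences of 1 gene are not independent, and in captured cells fewer cells of a type and less RNA per cell cannot be told apart.

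**Figure D1:**
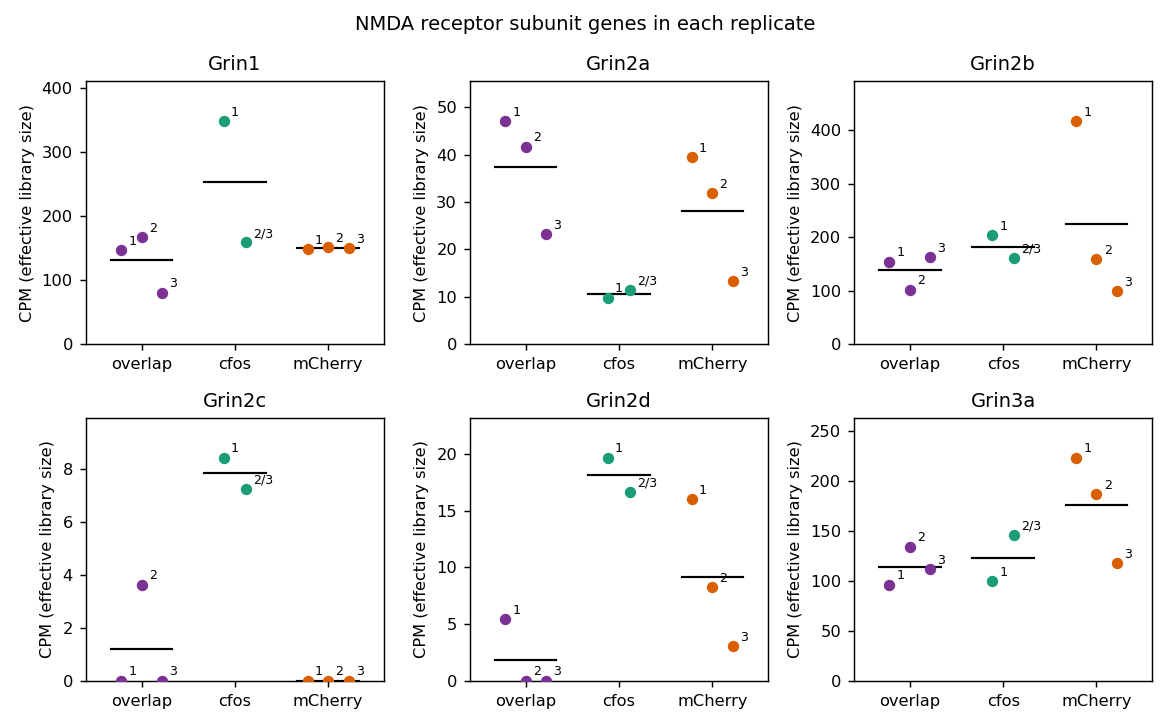
Level of each of the 6 subunit genes (CPM of the effective library size, linear axis from 0, own scale per gene) in the replicates of overlap, cfos and mCherry; points are replicates with their numbers, 2/3 being the mean of cfos 2 and cfos 3, and lines are group means. Grin2a was at 9.82 and 11.5 CPM in cfos, below every other replicate, Grin2c was at 0 in all mCherry libraries, and single libraries stand out for Grin1 (cfos 1, 348 CPM) and Grin2b (mCherry 1, 417 CPM).

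Grin1, the subunit that every NMDA receptor contains, had 81, 92 and 38 counts in overlap 1, 2 and 3, 248, 250 and 495 counts in cfos 1, 2 and 3, and 139, 128 and 146 counts in mCherry 1, 2 and 3. Its level was 147, 167 and 80.1 CPM in overlap, 348 CPM in cfos 1 and 159 CPM in cfos 2/3, and 148, 151 and 149 CPM in mCherry. One library, cfos 1, stood above all the others, overlap 3 lay below them, and the remaining replicates lay close together. The cfos replicates were above the mCherry libraries without overlap, though cfos 2/3 only by a little, and their range crossed that of overlap. The group means were 131 ± 45.4 CPM in overlap (SD, n = 3), 253 ± 134 CPM in cfos (SD, n = 2) and 150 ± 1.46 CPM in mCherry (SD, n = 3, with mCherry 2 not independent). The log2 fold change was -0.19 (SE 0.49) in overlap versus mCherry, -0.94 (SE 0.54) in overlap versus cfos and 0.76 (SE 0.53) in cfos versus mCherry, with adjusted p = 0.906, 0.515 and 0.497 by edgeR. Without cfos 1 the value was 0.09 for cfos versus mCherry and -0.31 for overlap versus cfos, and without overlap 3 the value for overlap versus mCherry turned to 0.08. The 95% interval of overlap minus mCherry ran from -1.27 to 0.90 on the log2 scale, so that differences of either sign lie within it.

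Grin2a encodes GluN2A, the subunit of fast-closing receptors that becomes common as forebrain synapses mature. It had 26, 23 and 11 counts in overlap 1, 2 and 3, 7, 19 and 35 counts in cfos 1, 2 and 3, and 37, 27 and 13 counts in mCherry 1, 2 and 3. In CPM this was 47.1, 41.7 and 23.2 in overlap, 9.82 in cfos 1 and 11.5 in cfos 2/3, and 39.5, 31.9 and 13.3 in mCherry. Both cfos replicates, which differed so widely in Fos, were low and close together, below every overlap and every mCherry library. The step to mCherry 3 was small, with 13 counts there and 7 in cfos 1, so that counting error could cover it. The overlap and mCherry ranges crossed. In overlap versus mCherry 0 of the 5 tested members were apart in either direction, beside 13.5% of all genes higher and 8.88% lower. The order of the means was overlap (37.3 ± 12.5 CPM, SD, n = 3), mCherry (28.2 ± 13.5 CPM, SD, n = 3) and cfos (10.7 ± 1.2 CPM, SD, n = 2). The log2 difference was 1.79 (SE 1.15, adjusted p = 0.571 by edgeR) in overlap versus cfos and -1.39 (SE 1.12, adjusted p = 0.559) in cfos versus mCherry, and neither difference passed the test. In overlap versus mCherry it was 0.40 (SE 0.96, adjusted p = 0.896), with a 95% interval from -1.74 to 2.55, and it was 0.06 without mCherry 3 and 0.72 without mCherry 1. Among the 5 tested members Grin2a was the 1 that was higher in overlap than in cfos without overlap of the groups, as were 13.6% of all genes. It was also the 1 that was lower in cfos than in mCherry without overlap, as were 14.2% of all genes.

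Grin2b encodes GluN2B, the subunit of slow-closing receptors that binds the kinase CaMKII. It had 85, 56 and 77 counts in overlap 1, 2 and 3, 145, 269 and 486 counts in cfos 1, 2 and 3, and 391, 135 and 97 counts in mCherry 1, 2 and 3. Its level was 154, 102 and 162 CPM in overlap, 203 CPM in cfos 1 and 161 CPM in cfos 2/3, and 417, 159 and 99.2 CPM in mCherry. The library mCherry 1 was far above all others, and the remaining 7 replicates lay within 99.2 to 203 CPM, with the groups overlapping in every comparison. The log2 difference was -0.69 (SE 0.57, adjusted p = 0.632 by edgeR) in overlap versus mCherry, -0.39 (SE 0.63, adjusted p = 0.869) in overlap versus cfos and -0.31 (SE 0.63, adjusted p = 0.85) in cfos versus mCherry. The sign of both comparisons with mCherry rested on mCherry 1: without it they were 0.10 for overlap and 0.51 for cfos.

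Grin2d encodes GluN2D, the subunit with the slowest closing and the weakest magnesium block, found in the adult mainly in the diencephalon, the brainstem and interneurons. It had 3, 0 and 0 counts in overlap 1, 2 and 3, 14, 23 and 55 counts in cfos 1, 2 and 3, and 15, 7 and 3 counts in mCherry 1, 2 and 3. Its level was 19.6 CPM in cfos 1 and 16.6 CPM in cfos 2/3 and 16, 8.27 and 3.07 CPM in the mCherry libraries, while overlap 1 had 5.43 CPM. The 0 counts of overlap 2 and overlap 3 leave room for 3 counts in each, equal to 5.43 to 6.32 CPM over the overlap libraries. The cfos replicates were highest, with mCherry 1 near their level. The overlap and mCherry ranges crossed, since mCherry 3 lay below overlap 1. Over the group, overlap had 3 counts against 53 in cfos, a ratio of 0.11 with a 95% Clopper-Pearson counting interval from 0.0219 to 0.338, and against 25 in mCherry, a ratio of 0.21 with an interval from 0.0406 to 0.688. The intervals cover counting error only and use the rounded mean of cfos 2 and 3, and with mCherry 2 not independent those against mCherry are likely too narrow. Over the libraries the difference did not pass, with a fitted log2 difference of -3.20 (SE 1.72, adjusted p = 0.493 by edgeR) in overlap versus cfos, -2.22 (SE 1.61, adjusted p = 0.575) in overlap versus mCherry and 0.98 (SE 1.58, adjusted p = 0.798) in cfos versus mCherry. Without mCherry 1 the last of these was 1.67 and that of overlap versus mCherry -1.55. All 3 overlap counts came from overlap 1. Over overlap 2 and 3, with 0 counts, Grin2d was at least 5.93-fold lower than in cfos and at least 3.10-fold lower than in mCherry, against a floor of 3 counts over these libraries. Overlap 2 and overlap 3 were picked for their 0 counts, so these bounds describe them alone and do not support a difference of the group. The library left out, overlap 1 at 5.43 CPM, was above mCherry 3 at 3.07 CPM. Grin2d was the 1 tested member lower in overlap than in cfos without overlap of the groups, as were 12% of all genes. In cfos versus mCherry, Grin1 and Grin2d were the 2 tested members higher without overlap, as were 18.5% of all genes.

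Grin2c encodes GluN2C, which gives receptors of low magnesium block and is known from cerebellar granule cells and from astrocytes. It had 0, 2 and 0 counts in overlap 1, 2 and 3, 6, 13 and 21 counts in cfos 1, 2 and 3, and 0 counts in each mCherry library, and was too sparse for the test over all genes. Every cfos column held some, at 8.41 CPM in cfos 1 and 7.25 CPM in cfos 2/3, overlap 2 had 3.63 CPM, and all other libraries had none. The 0 counts in mCherry allow up to 1.09 CPM over the group. Against that floor of 3 counts over the group, Grin2c was at least 6.92-fold higher in cfos than in mCherry, and at least 4.80-fold higher with mCherry 2 left out. The ratio of overlap to cfos was 0.169, with a 95% Clopper-Pearson counting interval from 0.0193 to 0.682, and between overlap and mCherry no fold can be given. These values cover counting error only and have no test over the libraries. The 10 astrocyte markers all had counts in each group and summed to 834 to 916 CPM in overlap, 1493 to 3864 CPM in cfos and 1145 to 1302 CPM in mCherry. Of the 3864 CPM in cfos 1, 2837 CPM were of the lipid carrier gene Apoe, which had 142 CPM in cfos 2/3. Of the 8 tested astrocyte markers, 5 were above 0 and 3 below in cfos versus mCherry, among the 3 Gja1 at -1.05 and Aldoc at -1.23. Oligodendrocyte markers summed to 402 to 1762 CPM in overlap, 4758 to 6802 CPM in cfos and 1278 to 2411 CPM in mCherry, with 9, 10 and 8 of 10 detected (Opalin at 0 in overlap, Opalin and Ermn at 0 in mCherry). Their part in the Grin2c values, and that of the greater depth of cfos 2 and 3, was not tested.

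Grin3a encodes GluN3A, a subunit of receptors with little magnesium block and low calcium flow. It had 53, 74 and 53 counts in overlap 1, 2 and 3, 71, 239 and 445 counts in cfos 1, 2 and 3, and 209, 158 and 115 counts in mCherry 1, 2 and 3. Its level was 96.0, 134 and 112 CPM in overlap, 99.6 CPM in cfos 1 and 146 CPM in cfos 2/3, and 223, 187 and 118 CPM in mCherry. No library stood far apart, every pair of groups overlapped, and the highest values were those of mCherry 1 and mCherry 2. The means were 114 ± 19.2 CPM in overlap (SD, n = 3), 123 ± 32.7 CPM in cfos (SD, n = 2) and 176 ± 53.5 CPM in mCherry (SD, n = 3). The log2 fold change was -0.62 (SE 0.49) in overlap versus mCherry, -0.11 (SE 0.54) in overlap versus cfos and -0.52 (SE 0.55) in cfos versus mCherry, with adjusted p = 0.611, 0.973 and 0.671 by edgeR. The 95% interval of overlap minus cfos ran from -1.31 to 1.10, and the sign of that difference turned when overlap 1 (0.0035) or cfos 2/3 (0.35) was left out. In cfos versus mCherry the value was -1.15 without cfos 2/3 and -0.26 without cfos 1. Grin3b, the other GluN3 gene, which is not among the 6, had 2 counts in overlap 2 and 0 in every other column. It shares 1059 exon bases with Tmem259 on the opposite strand.

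**Figure D2:**
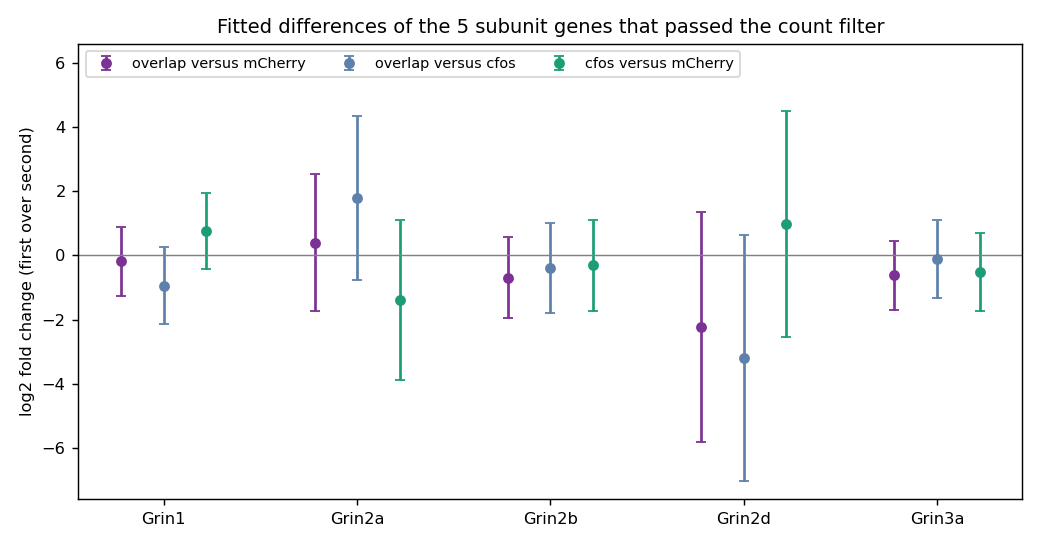
Log2 fold change of the first over the second group (points) with its 95% interval from edgeR's fit (bars) for the 5 members that passed the count filter, in overlap versus mCherry, overlap versus cfos and cfos versus mCherry. All 15 intervals cross 0; the narrowest are those of Grin1 and Grin3a and the widest those of Grin2d, which had 3 counts over the overlap libraries.

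The balance of Grin2a to Grin2b within a library does not depend on library size and was compared because these subunits are the main alternatives beside GluN1 in forebrain receptors. Of the summed Grin2a and Grin2b counts, Grin2a made up 23.4% (95% Wilson interval 16.5 to 32.1), 29.1% (20.3 to 39.9) and 12.5% (7.13 to 21) in overlap 1, 2 and 3. It made up 4.61% (2.25 to 9.20) in cfos 1 and 6.67% (4.62 to 9.53) in cfos 2/3. In mCherry 1, 2 and 3 it made up 8.64% (6.34 to 11.7), 16.7% (11.7 to 23.2) and 11.8% (7.04 to 19.2). The cfos replicates held the lowest shares of all, and the 2 highest were those of overlap 1 and overlap 2, with overlap 3 inside the mCherry range. The mean log2 ratio of Grin2a to Grin2b, with 0.5 counts added to each, was higher by 2.13 in overlap than in cfos, and the exact two-sided permutation test over the libraries gave p = 0.1, the smallest that 3 against 2 allow, and 0.2 after adjustment over the 3 comparisons. It was higher by 0.94 in overlap than in mCherry (exact permutation p = 0.2, with 0.1 the smallest possible) and the difference of cfos from mCherry was -1.18 (exact permutation p = 0.2), each 0.2 after adjustment. The design cannot reach 0.05 in any of these. The difference of overlap from cfos stayed between 1.81 and 2.55 when any 1 replicate was left out.

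The other balances varied as much within groups as between them. Grin1 counts divided by the summed Grin2 counts were 0.711, 1.14 and 0.432 in overlap, 1.44 in cfos 1 and 0.807 in cfos 2/3, and 0.314, 0.757 and 1.29 in mCherry. Grin3a counts divided by Grin1 counts were 0.654, 0.804 and 1.39 in overlap, 0.286 in cfos 1 and 0.919 in cfos 2/3, and 1.5, 1.23 and 0.788 in mCherry. The groups overlapped in both ratios. Across the 8 replicates the log2 CPM of pairs of members were correlated by Pearson's r of -0.40 (Grin1 with Grin2a) to 0.62 (Grin2b with Grin2d). These are descriptions, since the points share groups and depth and mCherry 2 is not independent. Those with Grin2d also rest on its 0 counts in overlap 2 and overlap 3.

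**Figure D3:**
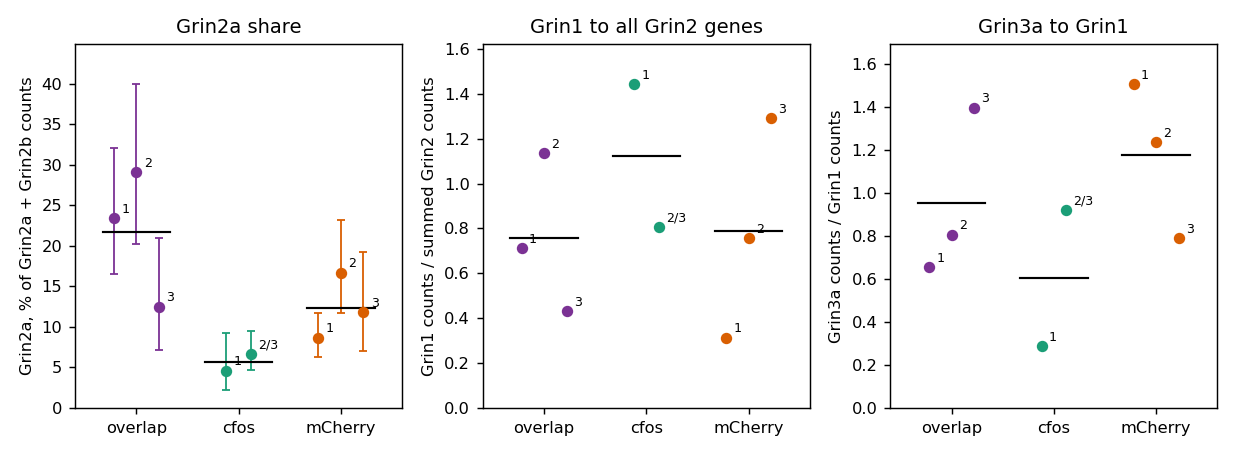
Balance between subunit genes in each replicate of overlap, cfos and mCherry: Grin2a as a percentage of Grin2a plus Grin2b counts (left, bars are 95% Wilson intervals of counting error), Grin1 counts over summed Grin2 counts (middle) and Grin3a counts over Grin1 counts (right); lines are group means. The Grin2a share was 4.61% and 6.67% in cfos, below the 8.64% to 29.1% of the other replicates, and the other 2 ratios overlapped between groups.

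For each tested member, the genes whose level followed it most closely over the 8 replicates were sought among 7714 or 7715 named genes with a mean of at least 20 CPM. Grin1 was followed by Sugt1, Gnl2 and Arhgap35 (Pearson's r = 0.984, 0.983 and 0.982), Grin2a by Slc6a20b, Msh4 and Prl2c3 (0.982, 0.981 and 0.974) and Grin2b by the thyroid hormone receptor gene Thrb, Nmrk1 and Smad5 (0.949, 0.949 and 0.927). Grin2d was followed by Sccpdh, Kifc2 and Asrgl1 (0.994, 0.988 and 0.978) and Grin3a by Coq3, the receptor kinase gene Tyro3 and Agfg2 (0.974, 0.962 and 0.947). With 8 points, 1 in 100 of the candidate genes had r above 0.915 for Grin1 and above 0.775 to 0.868 for the other 4. No member was among the closest genes of another. Grin2c and Grin2d could not have been, since Grin2c did not pass the filter and Grin2d was under 20 CPM in every replicate.

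The proteins around the receptor were described by 8 lists with 87 genes besides the members, 69 of which passed the count filter. In overlap versus cfos 51 of the 69 had a log2 fold change below 0, with a median of -0.75, beside 45.4% of all genes and a median of 0.12. At an unadjusted p under 0.05, 10 of the 69 were lower in overlap and 0 higher, beside 3.14% and 8.69% of all genes, and 0 passed after adjustment. In cfos versus mCherry 51 of the 69 were above 0, with a median of 0.48 beside 0.04 for all genes, and 5 were higher at an unadjusted p under 0.05 and 0 lower, beside 7.49% and 10.2% of all genes. In overlap versus mCherry 38 of the 69 were below 0, with a median of -0.14 beside 47.7% of all genes and a median of 0.09, and 1 was higher and 5 were lower at an unadjusted p under 0.05, beside 10.1% and 4.9% of all genes. Of the 12 neuronal markers, 11 were below 0 in overlap versus cfos, 11 below 0 in overlap versus mCherry and 11 above 0 in cfos versus mCherry, and their part in the values of these lists was not tested. Left-out libraries moved the counts at an unadjusted p, both of the list genes and of all genes. Omission of a cfos replicate leaves 1 in that group, so such counts are not given for it. The 10 lower genes in overlap versus cfos became 6 of 66 without mCherry 2, beside 1.8% of all genes. They became 6 of 71 without overlap 1, beside 3.42% of all genes. In cfos versus mCherry the 5 higher genes became 0 of 66 without mCherry 2, 1 of 65 without mCherry 3 and 3 of 66 without mCherry 1. The share of all genes that were higher fell as well, from 7.49% to 2.76%, 4.52% and 6.68%, so these changes are not particular to the lists. The 5 lower genes in overlap versus mCherry became 2 of 66 without mCherry 2, 2 of 72 without overlap 3 and 3 of 66 without mCherry 1. Beside them 1.94%, 3.03% and 4.55% of all genes were lower. The 1 higher gene became 0 without mCherry 2 or mCherry 3, beside 4.49% and 6.83% of all genes. It became 2 without overlap 1, overlap 2 or mCherry 1, where the share of all genes was under the 10.1% with all replicates. In overlap versus cfos, 46 to 57 genes of 65 to 77 tested were below 0 in every omission. In cfos versus mCherry 14 to 30 were below 0, with 30 of 76 without cfos 1 and 26 of 77 without cfos 2/3, and the median of 0.48 became 0.30 without cfos 1, 0.24 without cfos 2/3 and 0.27 without mCherry 2. The median of -0.14 in overlap versus mCherry became -0.21 without cfos 2/3 or mCherry 3, -0.30 without mCherry 2 and -0.09 without cfos 1, and that of -0.75 in overlap versus cfos became -0.47 without cfos 1.

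**Figure D4:**
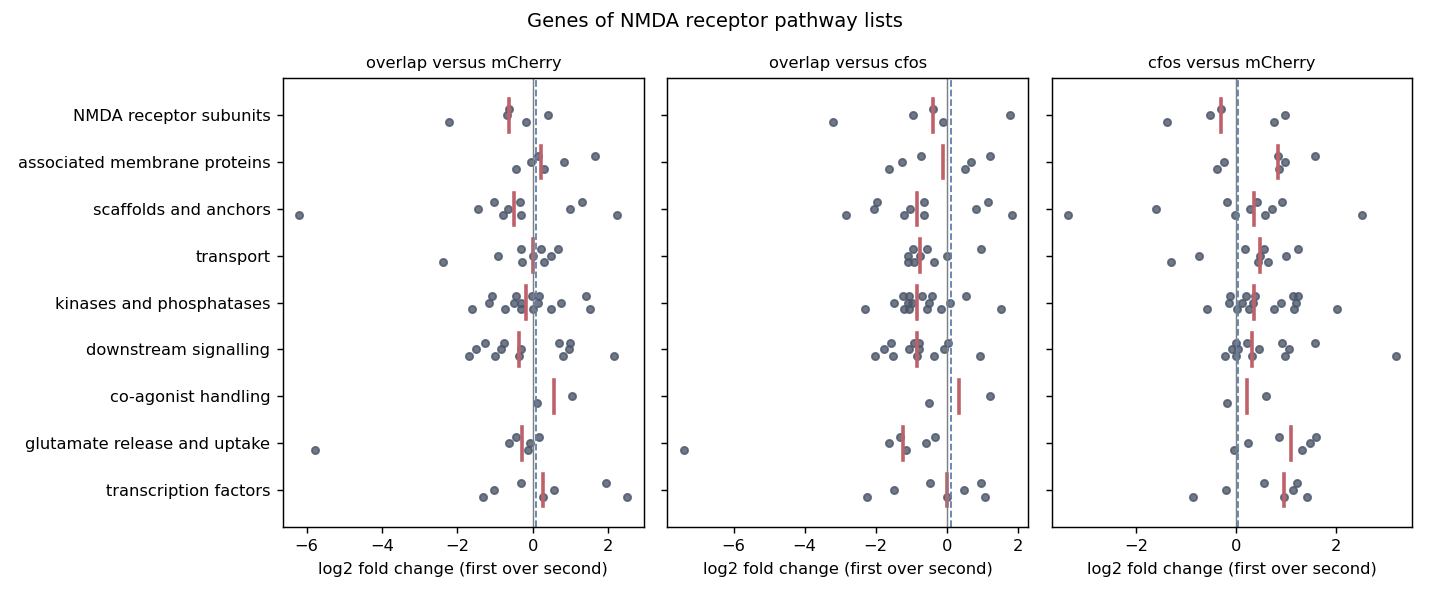
Log2 fold change (first over second group) of each tested gene (points) in the list of subunits and the 8 lists of genes around the NMDA receptor, for overlap versus mCherry, overlap versus cfos and cfos versus mCherry; red bars are list medians and the dashed line is the median of all tested genes. In overlap versus cfos the medians of scaffolds (-0.84), kinases and phosphatases (-0.84), downstream signalling (-0.84) and glutamate release and uptake (-1.24) lie left of the dashed line at 0.12.

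Of the scaffolds and cytoskeletal anchors, which hold the receptor at the postsynaptic density, 7 of 10 tested genes were below 0 in overlap versus cfos and 7 of 10 in overlap versus mCherry. Dlg1, which encodes the PDZ scaffold SAP97, stood at 116, 107 and 537 CPM in overlap, 112 CPM in cfos 1 and 31.6 CPM in cfos 2/3, and 103, 40.1 and 16.4 CPM in mCherry, and its log2 difference in overlap versus mCherry was 2.24 (SE 0.93, adjusted p = 0.305 by edgeR). One library, overlap 3, was far above the rest. Actn2, an actinin that links the receptor to actin, had 0, 1 and 0 counts in overlap, 8 in cfos 1 and 0 in cfos 2/3, and 90, 38 and 25 in mCherry, so that nearly all of its counts lay in mCherry. Nefl, the neurofilament light chain gene, which is also among the neuronal markers, stood at 68.8, 136 and 94.8 CPM in overlap, 522 CPM in cfos 1 and 254 CPM in cfos 2/3, and 237, 218 and 155 CPM in mCherry. Every overlap library was below all others, with -1.95 (SE 0.50, adjusted p = 0.354 by edgeR) against cfos and -1.03 (SE 0.46, adjusted p = 0.331) against mCherry. Akap9, an anchoring protein gene counted here over all its splice forms, had -2.04 (SE 0.78, adjusted p = 0.398 by edgeR) in overlap versus cfos.

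Of the kinases and phosphatases, 13 of 16 were below 0 in overlap versus cfos. Camk2b, a subunit of CaMKII, stood at 170, 278 and 236 CPM in overlap, 494 CPM in cfos 1 and 577 CPM in cfos 2/3, and 227, 246 and 209 CPM in mCherry. Both cfos replicates were above all others, and the log2 differences were -1.23 (SE 0.37, adjusted p = 0.354 by edgeR) in overlap versus cfos and 1.24 (SE 0.37, adjusted p = 0.232) in cfos versus mCherry. Fyn, a kinase that phosphorylates GluN2 subunits, had 2.02 (SE 0.90, adjusted p = 0.282) in cfos versus mCherry. Downstream of calcium entry, 11 of 13 genes were below 0 in overlap versus cfos. The calmodulin gene Calm2 had -1.75 (SE 0.72, adjusted p = 0.402 by edgeR) in overlap versus cfos. Tiam1, a Rac activator, had 3.21 (SE 1.22, adjusted p = 0.261) in cfos versus mCherry, where cfos 2/3 was at 238 CPM, cfos 1 at 14 CPM and the mCherry libraries at 21.3, 15.4 and 4.09 CPM, so that 1 replicate carried the difference. Nrgn, which encodes the calmodulin-binding protein neurogranin, had -2.02 (SE 0.83, adjusted p = 0.402) in overlap versus cfos.

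Of the genes of glutamate release and uptake, 6 of 6 were below 0 in overlap versus cfos. The vesicular transporter gene Slc17a7 had 0 counts in every overlap library, 19 in cfos 1 and 44 in cfos 2/3, and 13, 7 and 0 in mCherry. Over the pooled counts it was at least 10.8-fold lower in overlap than in cfos and at least 3.81-fold lower than in mCherry, against 3 counts over the overlap libraries. These bounds cover counting error only, and mCherry 3 had 0 counts as well. Over the libraries Slc17a7 did not pass against cfos (adjusted p = 0.386 by edgeR) or mCherry (adjusted p = 0.328). The medians of its list and of the 69 genes did not move with Slc17a7 at these bounds. Slc1a2, the astrocyte glutamate transporter gene that is also among the astrocyte markers above, had -1.32 (SE 0.42, adjusted p = 0.364 by edgeR) in overlap versus cfos. Glul, the glutamine synthetase gene of astrocytes, had -1.16 (SE 0.49, adjusted p = 0.402) in overlap versus cfos and 1.33 (SE 0.49, adjusted p = 0.255) in cfos versus mCherry. Of the genes of co-agonist synthesis and transport, 2 of 10 passed the filter, Srr, which makes D-serine, and the glycine transporter gene Slc6a5, and neither was under an unadjusted p of 0.05 in any comparison. The same was true of all 9 genes of transport and all 6 associated membrane proteins tested, among them Grina. Of the 7 transcription factors, Mef2c had -1.48 (SE 0.50, adjusted p = 0.368) in overlap versus cfos and 1.15 (SE 0.50, adjusted p = 0.275) in cfos versus mCherry.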

How the data were processed

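The authors deposited 1 table of unnormalised counts, its rows named by Ensembl identifier and gene symbol, and its 9 columns were matched to the samples by name. Per the labels' protocols, laser-captured cells were lysed and made into Smart-3SEQ libraries. The submitters' processing notes name featureCounts, STAR, UMI-tools, Trim Galore and the mm10 build. The sources used here state no versions, annotation, strand setting or use of molecular identifiers, and counting intervals and floors cover counting error alone.

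Of the identifiers, 54809 of 54838 matched GENCODE M21. Columns cfos 2 and cfos 3 were entered as their rounded mean. Genes passing filterByExpr by group (16410) were scaled by TMM and fitted in edgeR 4.0.16 (R 4.3.3) by 1 robust quasi-likelihood model of the 3 groups without covariates (biological coefficient of variation 0.958). Tests were two-sided, with Benjamini-Hochberg adjustment over all genes at 0.05. Each standard error was taken from the log2 difference and its F statistic (difference over root F). Log2 CPM used a prior count of 2. Alternatives included DESeq2 1.42.0 and limma 3.58.1 (voom).

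Named were all members, up to 4 genes per list of smallest p, and the 3 genes of highest r with each tested member. Of the list genes so named, values are given for those with an unadjusted p under 0.05, a choice made after values were seen, and 1 of them is not reported here. The lists and the averaging of cfos 2 and cfos 3 were chosen with earlier results of these data known, and the members by symbol without measured values.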

Additional observations from a re-analysis of the deposited data

How the results depend on the processing

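With edgeR, 0 genes were called in each comparison with DESeq2 size factors, with only the 2 groups compared, with cfos 3 in place of the mean, and in all omissions of 1 replicate (range 0 to 0). DESeq2 called 925 genes in overlap versus mCherry, 910 in overlap versus cfos and 1620 in cfos versus mCherry. Limma-voom called 1332, 0 and 2163, and edgeR without a count filter 484, 214 and 1197. The stricter count filter (at least 10 counts in every replicate of a group) gave 2 calls in cfos versus mCherry, and all 9 columns taken as separate samples gave 15 in overlap versus cfos and 247 in cfos versus mCherry. Of the 87 genes around the receptor, DESeq2 called 2 in overlap versus mCherry and 1 in overlap versus cfos. This stands beside 925 and 910 of the 54838 genes entered. Limma-voom called 2 of the 69 filtered list genes in overlap versus mCherry and 10 in cfos versus mCherry. This stands beside 1332 and 2163 of all 16410 genes tested, so the calls are not taken as particular to these genes. None of the 5 members that passed the count filter was called under any alternative. Their lowest adjusted p was 0.194, for Grin2a in overlap versus cfos by DESeq2. Grin2c was not followed through the alternatives, so nothing is said here of its calls by tools without that filter. The cause of the differences between tools was not tested.

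The sign of a member's log2 difference turned in 7 cases. Grin1 in overlap versus mCherry was 0.078 without overlap 3 (range over omissions -0.39 to 0.078). Grin2b in overlap versus mCherry was 0.10 without mCherry 1 (-1.07 to 0.10), and in cfos versus mCherry 0.51 without mCherry 1 (-0.70 to 0.51) and 0.044 by limma-voom. Grin3a in overlap versus cfos was 0.0035 without overlap 1, 0.35 without cfos 2/3 (-0.39 to 0.35) and 0.034 with the stricter filter. Grin2d kept its sign in all of its settings, although its overlap value rests on 3 counts, and so did Grin2a, although its value in overlap versus mCherry ranged from 0.06 to 0.72. Same-numbered columns were not paired in the fit: 0 of 9 pairs of deviations had a correlation over 0.1, and 4 of 9 columns correlated best with their own number. This check cannot decide whether same-numbered columns share animals, because cfos 2 and cfos 3 may not be separate libraries and mCherry 2 is not independent. With the replicate block on all 9 columns, 0 genes were called in each comparison. Without a cfos replicate, the remaining one is assumed to vary like the other groups. The shallow overlap libraries, with 179 to 248 counts over all 6 members, limit what can be seen of Grin2c and Grin2d.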
